A study of Bos taurus with 12 samples.

Results

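The 2 milk RNA libraries of each of 6 Holstein cows were compared by the P code in their sample names, the higher code against the lower, whatever the lysine code. All 12 libraries of the series entered this comparison, 6 with the higher and 6 with the lower P code of their cow. The rule that puts a library in a group uses the sample name and no measured value. The labels do not say what P stands for, and whether it is an experimental period is not settled by the sources used here, so the libraries are called higher P and lower P and not later and earlier.

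All cows were in early lactation, and each gave 1 control library and 1 library with lysine supplied postruminally, which delivers the amino acid beyond the rumen and its microbes. The treatment label of the lysine libraries gives 63 days, and the lysine code in the sample names is 63 against 0 for control. In cows 4319 and 4345 the lower code was P2 with lysine and the higher was P3 as control. In cows 4381 and 4383 the lower code was P3 with lysine and the higher was P4 as control. In cows 4394 and 4408 the lower code was P1 as control and the higher was P4 with lysine. The higher P library was thus the control in 4 cows, at a step of 1 in P, and the lysine library in 2 cows, at a step of 3. A second code, B, was 1 in cows 4319, 4383 and 4394 and 2 in the other 3, so each of the 3 pairs of P codes held 1 cow of each B code. Size of step and lysine go together without exception, so a difference between the 1-step and the 3-step cows cannot be told apart from a difference between lysine and control.

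Milk fat globules leave the mammary secretory cell wrapped in its own membrane, and crescents of cytoplasm are trapped with them, so the RNA of the fat layer samples the secreting epithelium without a biopsy. During lactation this epithelium devotes a large part of its messenger RNA to a few secreted milk proteins, and the output of the gland changes as lactation proceeds. A repeated sample of the same cow can therefore carry stage of lactation, season, handling and treatment at once. The counts are listed by Ensembl cattle gene ID. Of 24616 IDs, 0 could be paired with a symbol in the table of RefSeq genes used here, so a gene appears below under its abundance rank or its ID, no marker of mammary epithelium or of immune cells could be looked up, and the labelled origin of the RNA was not checked against markers.

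Sequencing depth did not follow the P code. Totals ran from 5.45 to 56.6 M counts per library (M is the metric prefix mega). The higher P library was the deeper one in cow 4319 (31.1 against 5.45 M), cow 4394 (17.9 against 13.3) and cow 4408 (23.6 against 16.4). It was the shallower one in cow 4345 (25.1 against 37.9), cow 4381 (12.6 against 56.6) and cow 4383 (7.40 against 28.7). Higher P libraries held 19.6 ± 8.71 M counts and lower P libraries 26.4 ± 18.8 M (mean ± SD, n = 6 each), with a mean within-cow difference of -6.78 ± 24.5 M. That difference was within the spread between cows (exact two-sided sign-flip permutation over 6 cows, p = 0.531, adjusted p = 0.844 over 5 library measures). With 6 cows this test cannot give a p below 0.0313. Without cow 4381 the mean difference was 0.654 M.

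More genes were expected in the higher P library at equal depth in 5 of 6 cows, but the difference did not pass the test. The number of genes expected in a random draw of 5.45 M counts, the smallest total, compares libraries as if they had been sequenced equally deeply. From lower to higher P it went from 12250 to 12499 in cow 4319, from 12974 to 13716 in cow 4345, from 11995 to 13011 in cow 4381, from 10493 to 11791 in cow 4394 and from 11828 to 12573 in cow 4408. In cow 4383 it was 12249 and then 12101. The 2 libraries coded P1 were the lowest of the lower P libraries, and the groups overlapped. The means were 12615 ± 682 and 11965 ± 820 genes (SD, n = 6 each), and the within-cow difference was 650.3 ± 523 genes (exact two-sided sign-flip permutation p = 0.0625, adjusted p = 0.313). The 4 cows with a step of 1 differed by 465 genes on average and the 2 cows with a step of 3 by 1021.

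**Figure D1:**
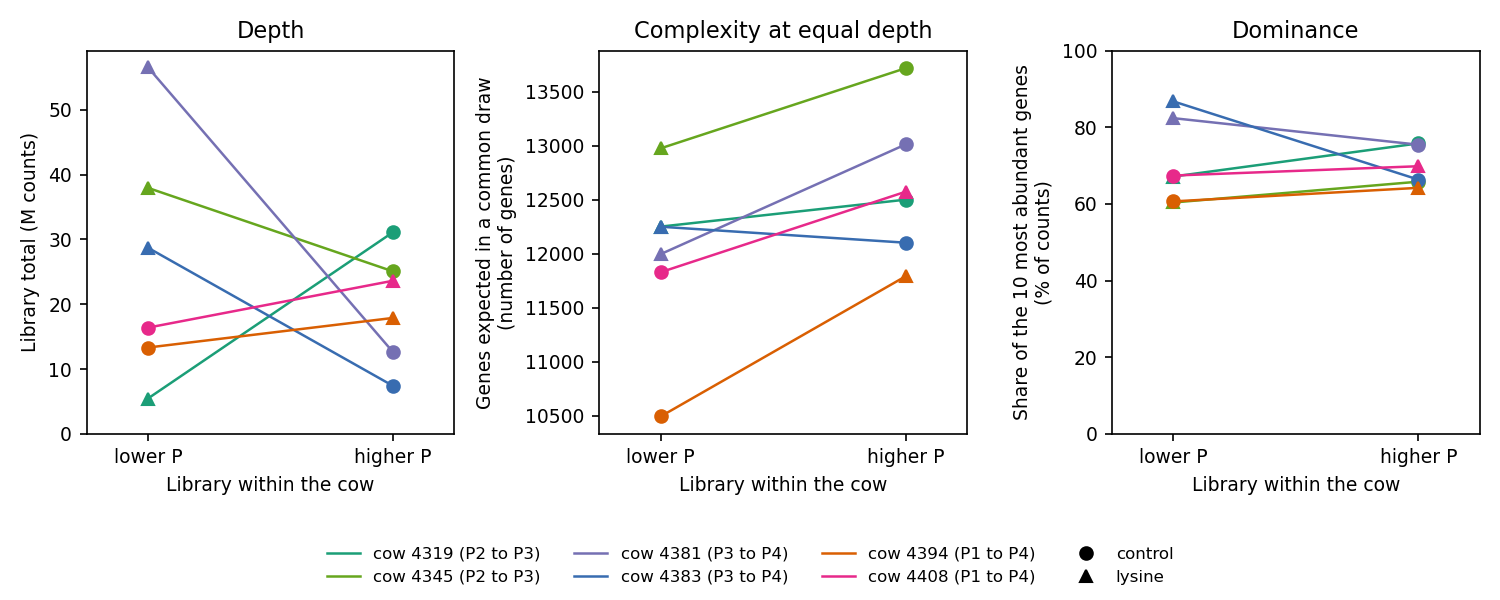
Values per library, with a line joining the 2 libraries of a cow from lower to higher P code; circles are control and triangles lysine libraries. The left panel shows the total in M counts, the middle panel the number of genes expected in a draw of 5.45 M counts (axis not from 0), which is higher at the higher P code in 5 of 6 cows, and the right panel the percent of counts in the 10 most abundant genes.

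Without the correction for depth, 13353 ± 1172 genes had at least 1 count in higher P and 12675 ± 1243 in lower P libraries, with more at the higher code in 5 of 6 cows (sign flips over cows, exact p = 0.219, adjusted p = 0.547). The mean within-cow difference was 677.7 genes. It was 1188 genes without cow 4383, the cow with fewer genes at the higher code. The exact sign-flip p was then 0.0625, the smallest that 5 cows allow. Leaving out the 1 cow of opposite sign fixes this p in advance. With at least 5 counts required, the mean difference over all 6 cows was 392.7 genes, with more at the higher code in 4 of 6 cows. The 10 most abundant genes of a library took 69.6 ± 5.04% of its counts at the higher and 70.8 ± 11.2% at the lower P code. Their share was higher at the higher code in 4 cows and lower in the other 2, at 86.8% and 66.4% for the lower and higher codes of cow 4383 and 82.4% and 75.5% for those of cow 4381 (exact sign-flip permutation p = 0.844, adjusted p = 0.844). Those 2 cows are the ones coded P3 and P4. Without cow 4383 the mean difference turned from -1.22 to 2.63 percentage points. The effective number of genes, which is the exponential of the Shannon entropy of the counts, was 78.9 ± 26.9 at the higher and 85.9 ± 56.9 at the lower code (exact sign-flip permutation p = 0.75, adjusted p = 0.844), and the sign of its difference depended on single cows.

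No gene changed between the higher and the lower P code past the threshold. With cow as a block, 0 of 11323 genes were called at an adjusted p under 0.05, or 0% (edgeR quasi-likelihood test, Benjamini-Hochberg adjustment), and the smallest adjusted p was 0.993. Before adjustment 388 genes had a p below 0.05 (called a nominal p from here on), which is 3.43% of those tested. Of these 236 were higher (2.08%) and 152 lower (1.34%) in the higher P library. The split followed the scaling: with library totals as the only scaling 414 were higher and 12 lower, and the median over all genes moved from 0.05 to 0.25 on the log2 scale. limma voom called 0 genes, with 300 higher and 357 lower at a nominal p below 0.05. The edgeR number at a nominal p below 0.05 was 224 without cow 4381 and 599 without cow 4408. DESeq2 called 1 gene, with 701 at a nominal p below 0.05, and edgeR on library totals also called 1. The lysine contrast is made of the same libraries and had 0 genes called and 286 at a nominal p below 0.05 in the same kind of edgeR fit.

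The data bounded the change of well-measured genes. Over the 7358 genes averaging 5 CPM (counts per M counts) or more, the median size of the fitted change was 0.19 on the log2 scale. The median half-width of its 95% interval was 0.57, or 1.49-fold, not adjusted for the number of genes. Changes of 2-fold in either direction lay outside the interval of 73.7% of them, and changes of 4-fold outside that of 98.4%. The fitted change went past 2-fold for 64 genes. In genes under 5 CPM the median size was 0.45. Of all tested genes, 221 were higher in the higher P library of all 6 cows and 158 were lower in all 6, together 3.35%. Random signs in 6 cows agree at a rate of 0.0313, which is also the smallest p of the sign flips. For 344 genes the 4 control-higher cows moved one way and the 2 lysine-higher cows the other. That is the same direction with lysine in every cow, a pattern that random signs give at the same rate.

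Within single cows many genes were over 2-fold apart, but few of them in the same direction across cows. Among the genes at 5 CPM or more, cow 4394 had 1148 genes over 2-fold higher and 1003 over 2-fold lower in its higher P library, or 29.2% of them. Cow 4408 had 842 and 294, cow 4319 had 612 and 369, cow 4345 had 552 and 417, and cow 4383 had 379 and 588. Cow 4381 had the fewest, 211 and 200, or 5.59%. No gene was over 2-fold apart in the same direction in all 6 cows (0 higher and 0 lower), and 1 gene in each direction reached that in at least 5 cows. The lower one is ENSBTAG00000000306, described at the end. It passed the minimum of 5 CPM only through the lower P group, so it had to be lower at the higher code. In cow 4383 its raw counts were 2 and 0, so its number of cows is a description and not evidence of agreement between cows. In at least 4 cows there were 20 higher and 15 lower.

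**Figure D2:**
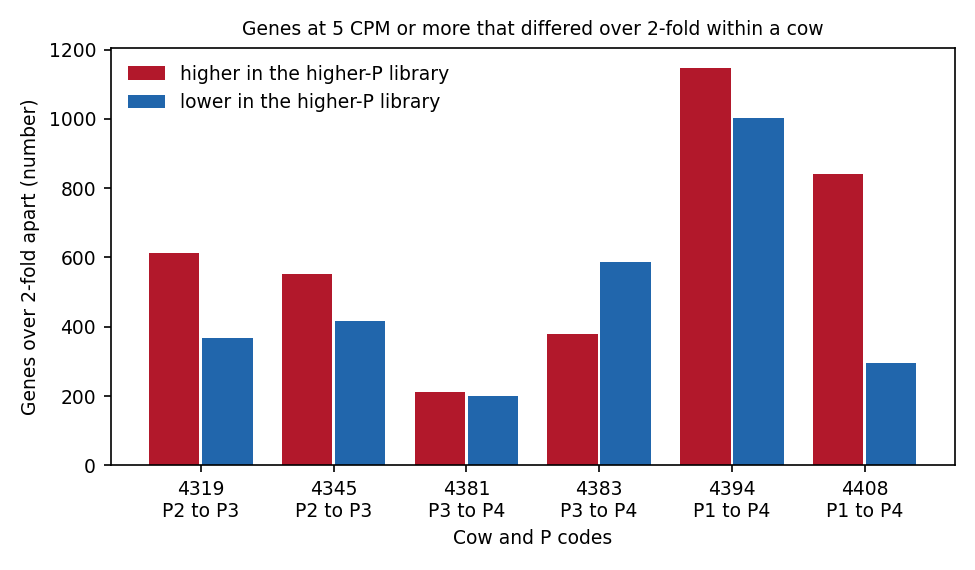
Number of genes, of 7358 that average 5 CPM or more, that were over 2-fold higher (red) or over 2-fold lower (blue) in the higher P library of each cow, with the P codes of the cow under its number. Cow 4394 has the tallest bars, 1148 and 1003, and cow 4381 the lowest, 211 and 200.

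In the pair of cows that spanned P1 to P4, more of these differences went in opposite directions than in the same direction. The numbers shared by 2 cows also depend on how many genes each had over 2-fold apart. They were not set against the overlap of unrelated differences. Both cow 4394 and cow 4408 were over 2-fold higher for 151 genes and over 2-fold lower for 45, while 360 genes were over 2-fold apart in opposite directions. For the P2 to P3 cows 99 genes were higher and 43 lower in both, with 52 in opposite directions. For the P3 to P4 cows 21 were higher and 68 lower in both, with 40 in opposite directions. The median absolute log2 difference between the 2 libraries of a cow, after centring, was 0.61 in cow 4394 and 0.40 in cow 4408, and 0.42, 0.47, 0.33 and 0.39 in cows 4319, 4345, 4381 and 4383. The cows with a step of 3 averaged 0.51 and those with a step of 1 averaged 0.40, a difference of 0.11 (exact two-sided permutation over 6 cows, p = 0.333, where 0.0667 is the smallest p possible). By this measure cow 4408 lay inside the range of the 1-step cows. By the percent of genes over 2-fold apart it lay above them, at 15.4%, against 5.59% to 13.3% in the 1-step cows. By the root mean square of the log2 differences it was also above them, at 0.89 against 0.56 to 0.72, and cow 4394 was at 1.23. These other measures were not tested.

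The 2 libraries of a cow were closer by the median than libraries of different cows, which was not tested. Still, most libraries had a nearer one from another cow. The median absolute log2 difference after centring had a median of 0.41 over the 6 same-cow pairs, from 0.33 to 0.61. Over the 60 pairs of libraries from different cows its median was 0.47, from 0.27 to 0.86, so the ranges overlap. Of the 12 libraries, 1 had the other library of its own cow as its nearest neighbour, the lower P library of cow 4345. Libraries of other cows outnumber the 1 partner from the same cow, so this count would be low also without any cow effect.

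With lysine as a covariate, the P code effect was estimated as the mean over both treatment orders, and again 0 of 11323 genes were called, or 0% (edgeR quasi-likelihood test, smallest adjusted p = 0.232). There were 796 genes at a nominal p below 0.05, or 7.03%, of which 602 were higher and 194 lower in the higher P library. The fit gives the 2 cows with a P1 library the same weight as the other 4 together. Lysine drops out of this mean only if its effect is the same in both treatment orders. The mean stands for a single P code effect only if the shorter and the longer P step have the same effect. Neither condition could be tested, because size of step and treatment order go together in every cow. Estimates given with lysine as a covariate rest on these conditions. DESeq2 called 114 genes in this fit (107 higher and 7 lower), and limma voom called 0. The edgeR test called 48 without a low-count filter. Without cow 4394 edgeR called 87 genes, all higher, and without cow 4408 it called 847, of which 599 were higher. The number at a nominal p below 0.05 was then 1078 and 2861, and it was 467 without cow 4345 and 495 without cow 4381. The fits without cow 4394 or cow 4408 set 1 cow against 4 and assume that its libraries vary like the others.

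Genes without a count in the P1 libraries made up much of the higher group, which the choice of these genes favours. They were selected as lower at the lower P code, in a fit that weighs the 2 P1 cows heavily. The shares below are thus a description. Of the 602 genes, 267 (44.4%) had 0 counts in the P1 library of cow 4394 and 111 (18.4%) in the P1 library of cow 4408, and 276 (45.8%) had 0 in at least 1 of these libraries. Over all tested genes the shares at 0 were 10.8% in the P1 library of cow 4394 and 2.48% in that of cow 4408, and 11.9% in at least 1. The next highest share of the 602 genes at 0 was 4.98%, in the P4 library of cow 4394. Of the 114 genes called by DESeq2, 65 had 0 counts in the P1 library of cow 4394. That library also had the largest share at 0 by a count that does not use the 602 genes. Of the genes expected at 20 or more counts from the other 11 libraries, 8.49% were at 0, against 2.50% in its P4 library and at most 1.74% in the other 10. Whether this goes with the P code, the cow or the making of the library was not tested. The part of this library in the number of genes at a nominal p below 0.05 was not tested beyond leaving out its cow. Without the lysine term the same library had 0 counts for 31 of the 236 genes in the higher group (13.1%).

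**Figure D3:**
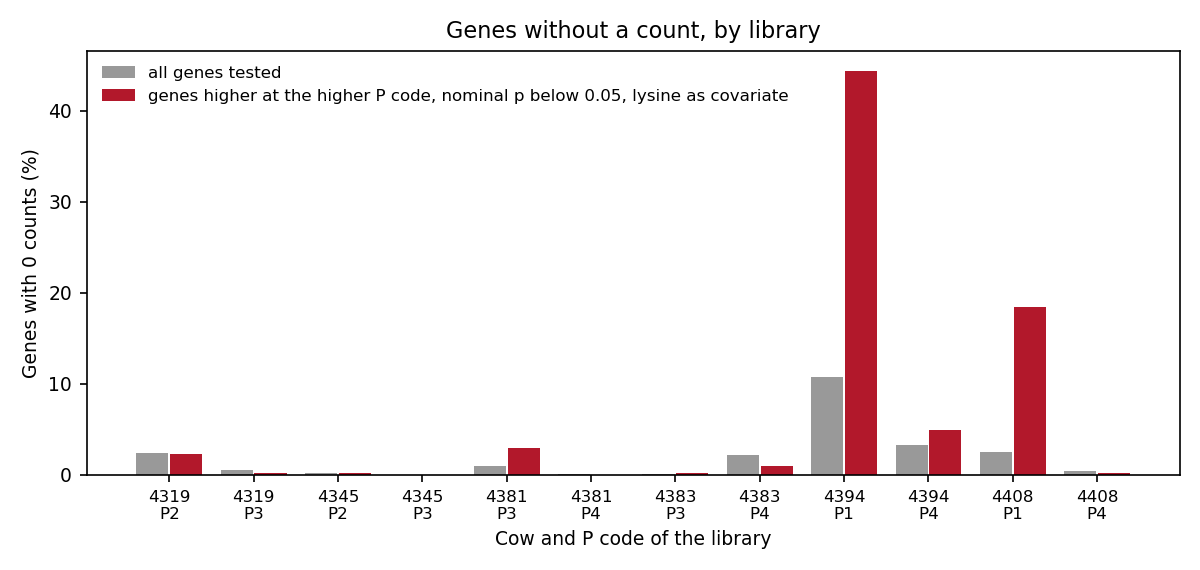
Percent of genes with 0 counts in each library, by cow and P code: grey bars over the 11323 genes tested, red bars over the 602 genes higher at the higher P code at a nominal p below 0.05 with lysine as a covariate. The red bars reach 44.4% and 18.4% in the P1 libraries of cows 4394 and 4408. The 602 genes were selected as lower at the lower P code, which favours 0 counts there.

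The within-cow change was also compared between the 3 pairs of P codes, P2 to P3, P3 to P4 and P1 to P4, with 2 cows each. At an adjusted p under 0.05, 0 genes differed (edgeR quasi-likelihood F test), the smallest adjusted p being 0.927, while 512 genes were at a nominal p below 0.05, or 4.52%. The lysine contrast lies inside this test and cannot be told apart from it. DESeq2 called 46 genes and limma voom called 0. Without cow 4394 edgeR called 449 genes and without cow 4408 it called 1099, and in both fits the P1 to P4 pair rests on 1 cow.

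The most abundant genes, ranked by mean share of counts over the 12 libraries, did not shift with the P code past the threshold. The first gene took 18.2% of counts at P2 and 21.1% at P3 in cow 4319, and 16.1% and 19.9% in cow 4345. It took 25.3% at P3 and 24.4% at P4 in cow 4381, and 17.0% and 17.1% in cow 4383. It took 20.4% at P1 and 22.7% at P4 in cow 4394, and 19.3% and 16.2% in cow 4408. These shares have exact Clopper-Pearson 95% intervals of at most 0.0324 percentage points to either side, which cover counting error only. After normalisation its log2 fold change was -0.14 ± 0.33 (SE, 6 cows, edgeR adjusted p = 0.994).

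The second gene had the widest range of shares. Its share went from 17.2% to 22.9% in cow 4319, from 20.3% to 11.9% in cow 4345 and from 26.7% to 10.1% in cow 4381. It went from 45.8% to 21.3% in cow 4383, from 4.04% to 3.65% in cow 4394 and from 13.7% to 25.8% in cow 4408. Both P3 to P4 cows were lower at the higher code, and the other cows were split. Cow 4394 was far below the rest in both libraries. The log2 fold change was -0.53 ± 0.49 (95% interval -1.59 to 0.53, edgeR adjusted p = 0.993), and -0.12 without cow 4383. With lysine as a covariate it was -0.30 ± 0.47. The averages over cows were -1.10 for a step of 1 and 0.53 for a step of 3. In the test of the 3 pairs of P codes this gene had an unadjusted p of 0.0038 by edgeR, and no gene had an adjusted p below 0.927.

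The genes of rank 3 to 8 had log2 fold changes between -0.20 and 0.25 (edgeR, adjusted p of 0.994 or more each), with standard errors of 0.27 to 0.34. The gene of rank 4 was the one with a higher fitted level at the higher P code. Its share went from 3.97% to 10.4% in cow 4345, from 4.93% to 10.5% in cow 4381, from 4.79% to 6.37% in cow 4383 and from 8.34% to 10.5% in cow 4394. It was 8.86% and 8.64% in cow 4319 and went from 9.15% to 6.58% in cow 4408. After TMM normalisation the direction was the reverse of the share in cow 4383, with a log2 difference of -1.07, and in cow 4319, with 0.38. The normalised log2 differences of this gene were 1.52, 0.49 and 0.60 in cows 4345, 4381 and 4394, and -0.46 in cow 4408. Its log2 fold change was 0.25 ± 0.34 and became -0.01 without cow 4345. On library totals alone the log2 fold changes of 6 of these 8 genes, all but ranks 2 and 4, turned from negative to between 0.00165 and 0.19. Without cow 4383 those 6 genes lay between 0.03 and 0.23. The lower P library of that cow had the smallest TMM scaling factor, 0.44, and the largest share of the second gene.

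**Figure D4:**
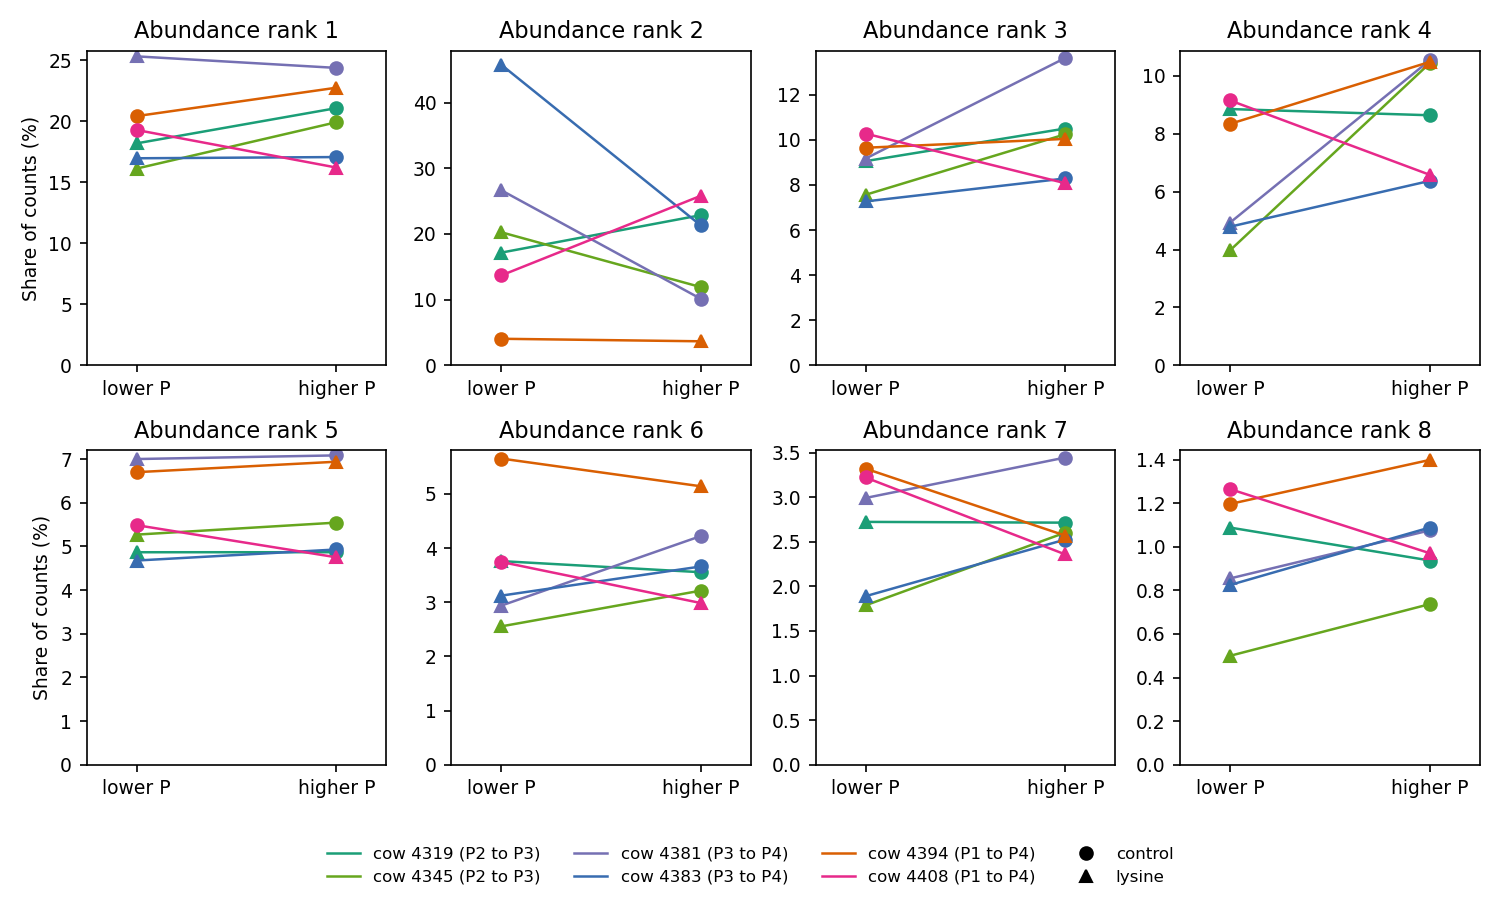
Share of counts (percent) of the 8 most abundant genes in each library, joined within cows from lower to higher P code; circles are control and triangles lysine libraries, and each panel has its own axis from 0. The second gene spans 3.65% to 45.8%, and the first gene 16.1% to 25.3%.

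Among genes averaging 5 CPM or more, 119 were higher and 121 lower at the higher P code in all 6 cows, together 3.26%. The 10 of each direction with the smallest p had nominal p-values of 0.000535 to 0.0066 by edgeR and adjusted p of 0.993 or more. Log2 fold changes ran from 0.75 to 1.58 in the higher 10 and from -3.02 to -0.53 in the lower 10. With lysine as a covariate all 20 kept their sign and had a nominal p below 0.05. They were selected by p and direction on these libraries, so this is a description and not separate evidence. The first 2 of each direction are given in TMM-normalised CPM.

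ENSBTAG00000005432 measured 39.2 CPM at P2 and 59.6 at P3 in cow 4319, and 83.0 and 103.9 in cow 4345. It measured 19.8 at P3 and 37.4 at P4 in cow 4381, and 26.9 and 58.4 in cow 4383. It measured 7.67 at P1 and 33.3 at P4 in cow 4394, and 19.9 and 36.5 in cow 4408. Every cow was higher at the higher code, although the groups overlapped because cow 4345 was high in both libraries. The log2 fold change was 0.98 ± 0.22 (SE, 95% interval 0.49 to 1.47, edgeR unadjusted p = 0.000787, adjusted p = 0.993), and 1.11 ± 0.23 with lysine as a covariate (adjusted p = 0.298).

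ENSBTAG00000023832 was scarcer, and it was higher at the higher code in 6 of 6 cows. It measured 12.5 and 20.5 CPM at the lower and higher codes of cow 4319, 16.5 and 30.9 in cow 4345, and 4.57 and 6.76 in cow 4381. It measured 9.72 and 25.9 in cow 4383, 1.38 and 2.67 in cow 4394 and 3.53 and 14.7 in cow 4408. The groups overlapped, since cow 4394 was low and cow 4345 high in both libraries. The log2 fold change was 1.10 ± 0.26 (95% interval 0.54 to 1.65, edgeR unadjusted p = 0.000967, adjusted p = 0.993), and 1.22 ± 0.27 with lysine as a covariate.

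ENSBTAG00000004413 was lower at the higher P code in every cow after TMM normalisation. It measured 54.9 and 28.7 CPM at the lower and higher codes of cow 4319, 33.6 and 26.1 in cow 4345, and 90.1 and 58.0 in cow 4381. It measured 44.1 and 27.0 in cow 4383, 78.1 and 54.9 in cow 4394 and 88.1 and 56.7 in cow 4408. The within-cow log2 differences ran from -0.93 to -0.36. The log2 fold change was -0.63 ± 0.16 (95% interval -0.98 to -0.28, edgeR unadjusted p = 0.00176, adjusted p = 0.993) and -0.62 ± 0.18 with lysine as a covariate, and the 1-step and 3-step cows averaged -0.66 and -0.57. The direction in every cow depended on the scaling. As a plain share of counts the gene went up in cow 4383, from 0.00196% to 0.00334%, and was 0.00526% and 0.00517% in cow 4381. On library totals its log2 fold change was -0.43 (edgeR unadjusted p = 0.278).

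ENSBTAG00000000306 was scarce, and it is the 1 gene called by DESeq2 (log2 fold change -3.04, adjusted p = 0.00544). It averaged 5.03 CPM and so passed the minimum of 5 CPM only through the lower P group, at 8.86 ± 17.1 CPM against 1.2 ± 2.42 at the higher code (SD, n = 6 each), and there above all through the 43.7 CPM of cow 4394. A gene chosen in that way had to be lower at the higher code, so its values are a description. Its raw counts at the lower and higher codes were 22 and 0 in cow 4319, 14 and 3 in cow 4345, and 150 and 9 in cow 4381. They were 2 and 0 in cow 4383, 820 and 128 in cow 4394 and 19 and 5 in cow 4408. All 6 cows were lower at the higher code, but cow 4394 held most of the counts and cow 4383 had almost none. The edgeR fit gave -3.02 ± 0.66 (unadjusted p = 0.000535, adjusted p = 0.993), and -3.02 ± 0.68 with lysine as a covariate (adjusted p = 0.3). With limma voom it had an adjusted p of 0.520. On library totals edgeR called it (adjusted p = 0.0229).

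**Figure D5:**
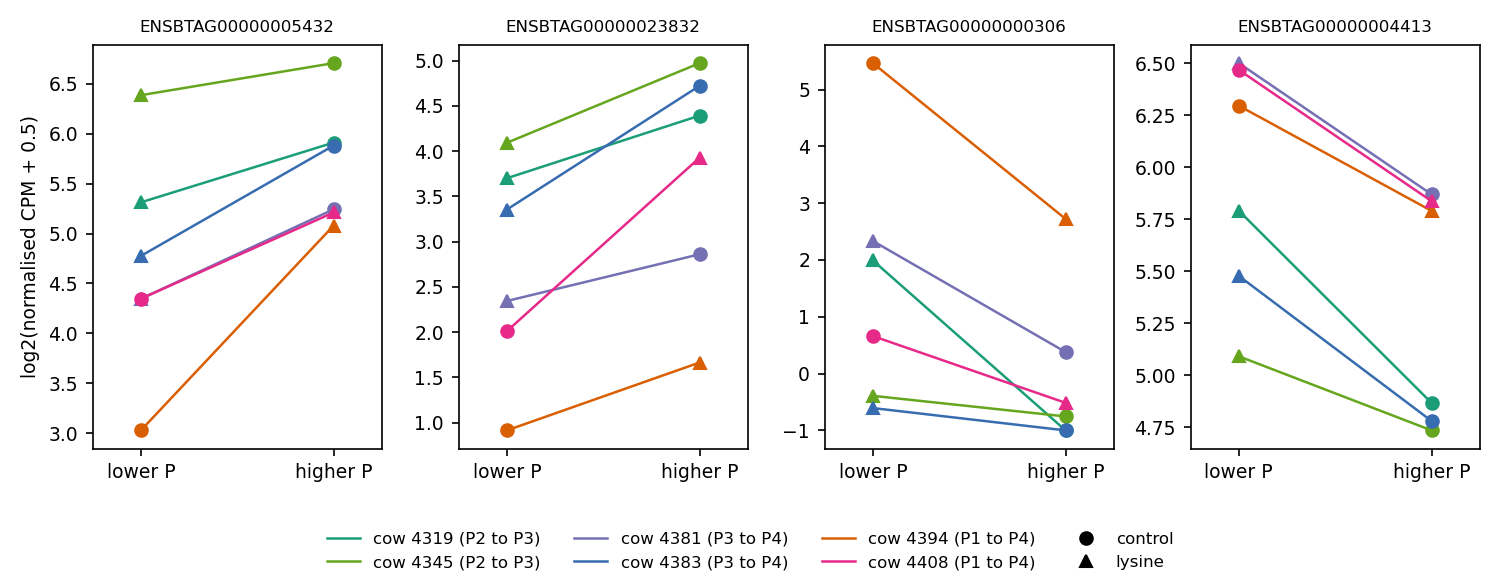
TMM-normalised level, as log2(CPM + 0.5), of the 4 genes in each library, joined within cows from lower to higher P code; circles are control and triangles lysine libraries. All 6 lines rise in the 2 left panels and fall in the 2 right panels on this scale; as a plain share of counts ENSBTAG00000004413 went up in cow 4383. The axes differ between panels.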

How the data were processed

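The deposited values are raw counts of reads, whole numbers that were not normalized, for each Ensembl gene ID and library, per the file headers and the values. For the aligner, counter, strand setting, build and annotation, the state is: not given in the sources used here. Of 24616 rows, 8083 were 0 in every library, no column was without a sample, and there were 0 pairs of identical libraries.

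Groups were read from the P code in the sample names. The 2 libraries of a cow come from 1 animal, so cow was a block. Deviations from group means correlated within cows at 0.00 to 0.68 across genes (median 0.21), against a median of -0.01 between cows. Genes were kept by filterByExpr (minimum count 10, about 0.482 CPM, in at least 6 libraries), leaving 11323 genes with 99.9% of the counts. edgeR 4.0.16 (R 4.3.3) fitted TMM-normalised robust quasi-likelihood models with cow and P order, then with lysine added (4 residual degrees of freedom), then with the P steps. Tests were two-sided, with Benjamini-Hochberg adjustment over all tested genes and a threshold of 0.05. Standard errors were obtained by dividing each log2 fold change by the root of its F statistic. Per-cow differences are of log2 CPM with a prior count of 2. Library measures were tested by exact sign flips over cows. DESeq2 1.42.0 and limma 3.58.1 were alternatives. The scripts were tested on simulated data.

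Named genes are the 8 most abundant, by rank, and 10 per direction, taken by smallest p from the genes that average 5 CPM or more and moved 1 way in 6 cows, of which the first 2 are given by ID. The members and the 21 lists of genes and cell markers were chosen with earlier results of these data known. No list could be tested, as 0 IDs matched a symbol. The counts of 0 by library and the shared 2-fold differences were chosen after seeing the data.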

Additional observations from a re-analysis of the deposited data

Results flagged for a closer look

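Within each group of 6 libraries, 34 sets of values were examined for a library far from the others (Dixon's test, 95% critical value; chance alone gives about 1 such set in 20), and 3 values stood apart. ENSBTAG00000005432 stood at 103.9 normalised CPM in the higher P library of cow 4345, against 59.6 in the next higher P library. ENSBTAG00000000306 stood at 43.7 normalised CPM in the lower P library of cow 4394, against 4.54 in the next lower P library, and at 6.10 in the higher P library of the same cow, against 0.80 in the next. Both libraries of cow 4394 were thus the highest of their group for this gene.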

How the results depend on the processing

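The count of genes called for the P code was 0 in 15 of 17 alternatives, including no replicate block (0 called; nominal p below 0.05 for 243 genes, and for 388 in the blocked fit); it was 1 with DESeq2 and 1 on library totals. With lysine as a covariate it was 0 in 10 of 15, but 114 with DESeq2, 3 on library totals, 48 with every gene kept and 0 to 847 on leaving out 1 cow. For the 3 pairs of P codes it was 0 in 9 of 14, but 46 with DESeq2, 23 on library totals, 98 with every gene kept and 0 to 1099 on leaving out 1 cow. The cause was not tested. Genes at a nominal p below 0.05 numbered 224 to 599 with a cow left out of the first comparison, and 811 with P as a linear term, of which 239 were among the 388. A linear term gives the cows with a step of 3 more weight than those with a step of 1. Cows 4394 and 4408, with a step of 3, both had lysine at the higher code, so this slope cannot be told apart from their lysine contrast. In the 4 cows with a step of 1, where P and lysine cannot be told apart, 0 genes were called and 548 had a nominal p below 0.05. Without cow 4381 the difference in library total was 0.654 M (range with a cow left out -13.3 to 0.654). The share of the 10 most abundant genes ranged from -3.19 to 2.63 points and the effective number of genes from -24.3 to 0.493, with 0.0656 for the inverse Simpson index. Genes expected at common depth differed by 521 to 810 with a cow left out. On library totals the log2 fold changes of the genes of rank 1, 3, 5, 6, 7 and 8 were 0.0628, 0.188, 0.00165, 0.0901, 0.0570 and 0.154. The gene of rank 3 was at 0.00365 at 5 CPM or more and 0.0285 with depth as a covariate. With a cow left out the ranges for ranks 1, 3 and 4 were -0.30 to 0.118, -0.15 to 0.229 and -0.00926 to 0.50. Those for ranks 5 to 8 were -0.33 to 0.0298, -0.23 to 0.104, -0.32 to 0.0250 and -0.21 to 0.146. ENSBTAG00000000306 fell below the filter in 3 alternatives, among them those without cow 4381 or cow 4394; it kept its sign in the other 14, as did the other 3 named genes in 17. The gene lists were not tested, because the IDs could not be named.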
